A study of Homo sapiens with 2 samples.

Results

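The 10 genes described here encode regulators of squamous lineage and of stem cell state: SOX2, TP63, KLF4, KLF5, MYC, BMI1, LIN28B, NANOG, POU5F1 and DCLK1. Every probe set annotated to them was taken, which gave 18 probe sets for 9 of the 10 genes, out of 54675 probe sets on the array and 21357 annotated genes. No probe set carried the symbol TP63 in the annotation used here, so TP63 was not analysed here. BMI1 and POU5F1 were represented only by probe sets that the annotation gives to several genes, and these 2 probe sets are marked as shared below.

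The study sorted KYSE-140, an established human esophageal squamous carcinoma line, by flow cytometry into CD90+ cells, which display the surface glycoprotein encoded by THY1, and CD90- cells, which do not. Total RNA of each fraction was measured on 1 Affymetrix U133 Plus 2.0 array, so there was 1 CD90+ and 1 CD90- sample, and the labels name no treatment. The sort was made to ask whether CD90+ cells hold tumour-initiating cells, and the genes here are among those commonly examined in that question. With 1 sample a group there is no replicate error and no test, and every fold below compares these 2 RNA samples only. In bulk RNA, fewer cells of a type and less RNA per cell cannot be told apart.

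The squamous epithelium of the esophagus is maintained by a basal layer in which SOX2, p63 and KLF5 keep cells proliferating and committed to the squamous lineage, while KLF4 acts mainly in the layers that leave the cycle and differentiate. SOX2 lies in a segment of chromosome 3 that is often gained in squamous carcinomas. SOX2, KLF4, MYC, NANOG, POU5F1 and LIN28 proteins are also known from embryonic stem cells and from reprogramming, BMI1 from the self-renewal of adult stem cells, and DCLK1 as a marker of tuft cells and of tumour stem cells in the mouse intestine.

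The values are MAS5 signals on a linear scale, which the authors had scaled so that both arrays had nearly the same mean. A common floor of 71.6, the median signal, was applied: signals under it were set to it before a log2 ratio, CD90+ over CD90-, was taken, and a fold with a signal under the floor on 1 array is given as a lower bound. A gene was measured if the probe set standing for it, the brightest one, reached the floor on at least 1 array. Signals of different probe sets are not comparable with each other as levels. THY1, the gene of the sorted protein, read 293 in CD90+ and 78.9 in CD90- cells on the probe set standing for it, and was higher in CD90+ cells on all 3 of its probe sets. Of 7 squamous markers with a probe set, all 7 were measured and none differed by 2-fold, with log2 ratios from -0.38 for PERP to 0.52 for KRT14. On the probe sets standing for them, fibroblast markers were under the floor on both arrays for 5 of 6 genes, COL1A2, COL3A1, DCN, LUM and PDGFRB, while COL1A1 read 2125 in CD90+ and 1240 in CD90- cells. All 4 leukocyte markers with a probe set and 3 of 4 endothelial markers were under the floor on both arrays.

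DCLK1 was the regulator with the largest difference, and the others kept to less than 2-fold. Of the 6 regulators measured on a probe set of their own, 1 was at least 2-fold higher in CD90+ cells, 0 were at least 2-fold lower and 5 lay between. Over all 12466 measured genes the shares were 2.47% for at least 2-fold higher and 1.75% for the same difference downwards. At 1.5-fold LIN28B joined DCLK1, against 7.37% of all measured genes higher by that much, and 0 regulators were lower, against 6.76%. SOX2, KLF4, KLF5 and MYC had log2 ratios below 0, and the median of the 6 was -0.19, against 0.01 over all measured genes, of which 48.8% lay below 0. By probe set, 15 of the 18 were measured, 2 reached 2-fold higher, both of DCLK1, and 0 reached 2-fold lower. The shares over all measured probe sets on the array were 1.90% higher and 1.56% lower. At 1.5-fold 3 of the 15 were higher, the third being that of LIN28B, against 6.92% of all measured probe sets, and 1 was lower, a dim one of SOX2, against 7.49%.

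**Figure D1:**
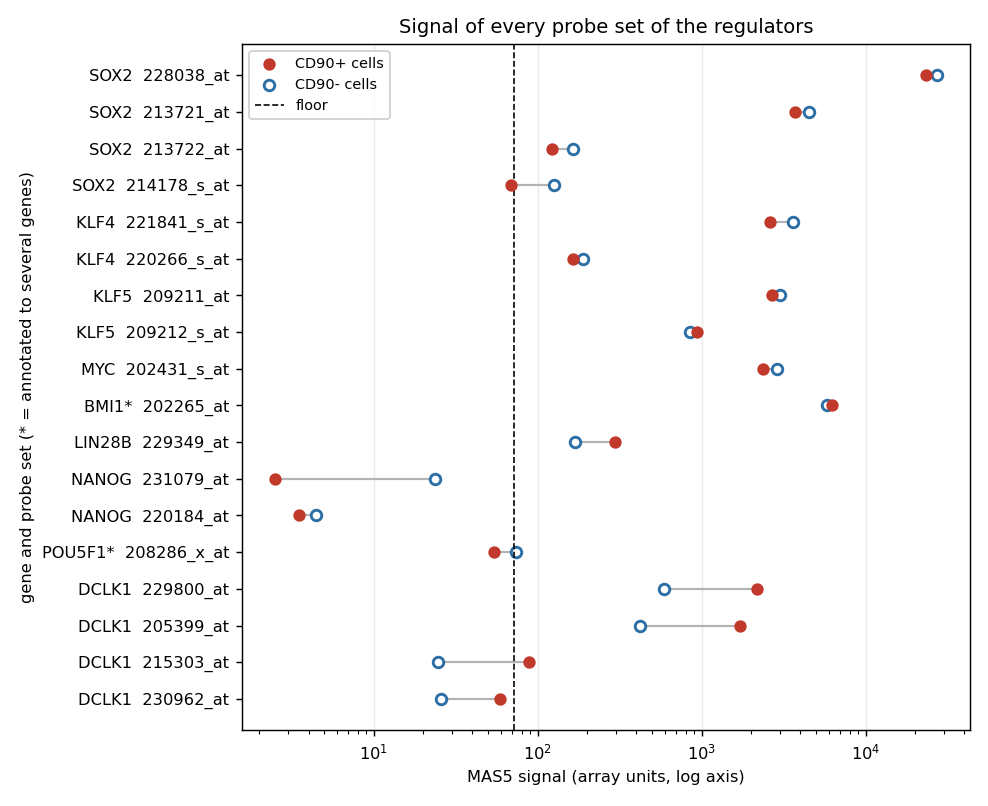
MAS5 signal (log axis, array units) of each of the 18 probe sets in CD90+ cells (filled) and CD90- cells (open), 1 array each, with the floor of 71.6 dashed and an asterisk for probe sets of several genes. All 4 DCLK1 probe sets and the LIN28B probe set read higher in CD90+ cells, all 4 SOX2 probe sets read lower, and NANOG stays under the floor.

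SOX2, the HMG-box factor of squamous progenitors and of embryonic stem cells, was bright in both fractions and slightly lower in CD90+ cells on every probe set. The brightest probe set, 228038_at, read 23328 in CD90+ and 27407 in CD90- cells, 1.17-fold lower with a log2 ratio of -0.23. Probe set 213721_at read 3717 against 4547 (log2 ratio -0.29), and 213722_at read 123 in CD90+ and 163 in CD90- cells (-0.41). The dimmest, 214178_s_at, read 68.6 in CD90+ cells, under the floor, and 125 in CD90- cells, at least 1.74-fold lower. All 4 SOX2 ratios thus pointed the same way, at sizes that grew as the signal came nearer to the floor. Among all genes with 4 measured probe sets 19.6% had all 4 ratios below 0, so such an agreement is common on these arrays. Of all measured genes 48.2% had a ratio as large as that of SOX2 in either direction.

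The transcripts around SOX2 were described after their values were seen. SOX2-OT, a long noncoding RNA gene that spans SOX2, read 5765 in CD90+ and 7309 in CD90- cells on its only probe set, 1.27-fold lower, and the _x_at suffix of this probe set marks possible cross-hybridisation with other transcripts. LINC01206, a noncoding RNA gene that starts 0.24 Mb from the start of SOX2, was lower in CD90+ cells on both of its probe sets, with 286 against 625 (2.19-fold) and 246 in CD90+ against 640 in CD90- cells (2.60-fold). The 50 genes nearest to SOX2 by start position, among those that reached the floor on each array, had a median log2 ratio of -0.07, and 1 of them was at least 2-fold higher, LAMP3, and 2 at least 2-fold lower, LINC01206 and C3orf70. Within this segment LINC01206 thus differed by more than SOX2 itself, in the same direction.

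KLF4, the zinc-finger factor of differentiating squamous cells and a reprogramming factor, was lower in CD90+ cells by less than 1.5-fold. Its brighter probe set, 221841_s_at, read 2608 in CD90+ and 3609 in CD90- cells, 1.38-fold lower with a log2 ratio of -0.47. The second, 220266_s_at, read 164 against 188, a log2 ratio of -0.20. Both lay below 0, which was also true of 32.2% of all genes with 2 measured probe sets. A ratio as large as that of KLF4 was found in 21.2% of all measured genes.

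KLF5, which drives proliferation of basal esophageal cells, showed no direction. Probe set 209211_at read 2698 in CD90+ and 2993 in CD90- cells (log2 ratio -0.15), and 209212_s_at read 937 in CD90+ and 852 in CD90- cells (log2 ratio 0.14). The probe sets disagreed in sign. The pooled SD of log2 ratios between probe sets of a gene was 0.31 over 6188 genes, and 0.27 over the 3102 of them whose brightest probe set was at least 16 times the floor, as that of KLF5 was. That SD describes agreement within these arrays, and it says nothing of how far repeated sorts would differ.

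MYC, the bHLH factor that promotes growth and cell division, had 1 probe set, 202431_s_at, which read 2367 in CD90+ and 2902 in CD90- cells, 1.23-fold lower with a log2 ratio of -0.29. A ratio as large was found in 38.9% of all measured genes. BMI1, a subunit of Polycomb repressive complex 1, read 6204 in CD90+ and 5829 in CD90- cells on 202265_at, a log2 ratio of 0.09. This probe set is annotated to BMI1 and to the read-through transcript COMMD3-BMI1, whose signals it cannot separate. COMMD3, the upstream gene of that read-through, had a probe set of its own that read 3813 in CD90+ and 4545 in CD90- cells (log2 ratio -0.25).

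NANOG and the probe set shared by POU5F1 were at or under the floor, unlike SOX2, which acts with both in embryonic stem cells. NANOG, a homeobox factor, read 2.50 in CD90+ and 23.6 in CD90- cells on 231079_at and 3.48 against 4.46 on 220184_at, all under the floor, so no fold is given. POU5F1, which encodes OCT4, read 54.3 in CD90+ and 73.3 in CD90- cells on 208286_x_at, just above the floor in CD90- cells. That probe set is annotated to POU5F1, POU5F1B, POU5F1P3 and POU5F1P4, so its signal cannot be given to any one of these genes. The related gene POU5F1B had a probe set of its own, 214532_x_at, which read 93.6 in CD90+ and 31.9 in CD90- cells, the opposite order to the shared one and again near the floor.

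LIN28B, an RNA-binding protein that blocks the maturation of let-7 microRNAs, was higher in CD90+ cells by less than 2-fold. Its only probe set, 229349_at, read 298 in CD90+ and 169 in CD90- cells, 1.76-fold higher with a log2 ratio of 0.82. Both signals were above the floor, and 6.81% of all measured genes had a ratio as large in either direction. LIN28A, the other member of this family, read 35.0 in CD90+ and 19.7 in CD90- cells, under the floor on both arrays. The 50 genes nearest to LIN28B, among those that reached the floor on each array, had a median log2 ratio of -0.02. None of them differed by 2-fold. The highest of these was CRYBG1, which starts 1.42 Mb from the start of LIN28B and read 2649 in CD90+ and 1453 in CD90- cells, with a log2 ratio of 0.87.

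The microRNAs that LIN28 proteins act on are shown because they are its best known targets. The RefSeq table (GRCh38.p14) held 9 mature sequences of the let-7 family from the 5' arm, and all 9 shared 1 seed, bases 2 to 8, given in capitals here for 4 of those with a single locus.
hsa-let-7b-5p (chr22:46113691-46113712, + strand): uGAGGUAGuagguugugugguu
hsa-let-7d-5p (chr9:94178841-94178862, + strand): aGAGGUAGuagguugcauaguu
hsa-let-7e-5p (chr19:51692793-51692814, + strand): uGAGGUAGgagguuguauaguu
hsa-let-7g-5p (chr3:52268336-52268357, - strand): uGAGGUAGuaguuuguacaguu
LIN28 proteins bind a GGAG motif in the let-7 precursors, marked in capitals in this hairpin.
MIRLET7G hairpin (chr3:52268278-52268361, - strand): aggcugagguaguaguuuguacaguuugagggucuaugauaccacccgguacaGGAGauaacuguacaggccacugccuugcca
The motif, searched on the RNA strand, was present in 9 of 11 let-7 hairpins in the table, and in 43.4% of all 1562 microRNA hairpins there. The hairpin of miR-98, whose mature sequence is 1 of the 9 that share the seed, was not among those 11. The let-7 RNAs themselves were not analysed here.

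Genes of the LIN28 and let-7 pathway showed none at least 2-fold different. Of 17 listed genes 14 were measured, 5 with ratios above 0 and 9 below, with a median of -0.07. DROSHA, the nuclear microRNA processing nuclease, read 6410 in CD90+ and 6396 in CD90- cells, and HMGA1, a chromatin protein, read 8059 in CD90+ and 7191 in CD90- cells. Singled out after their values were seen, HMGA2, a chromatin protein whose mRNA is a known let-7 target, read 6625 in CD90+ and 4535 in CD90- cells on its brightest probe set (log2 ratio 0.55). Its other measured probe sets ran from -0.33 to 0.50. TUT4, a uridylyl transferase that acts with LIN28A on let-7 precursors, read 416 in CD90+ and 738 in CD90- cells, 1.77-fold lower. DIS3L2, the exonuclease that degrades uridylated let-7 precursors, read 464 against 720, 1.55-fold lower, on its brightest probe set, and its other 3 had log2 ratios from -0.51 to -0.05. MIRLET7BHG, the host gene of let-7 genes on chromosome 22, read 32.8 in CD90+ cells, under the floor, and 128 in CD90- cells, at least 1.79-fold lower. Other genes of the list went both ways on the probe sets standing for them. ARID3B (0.50) and IGF2BP1 (0.43) had log2 ratios above 0, and ARID3A (-0.61), IGF2BP2 (-0.12) and IGF2BP3 (-0.08) below. Whether any of these values is linked to LIN28B was not tested.

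DCLK1, a microtubule-associated kinase with doublecortin domains, read higher in CD90+ cells on all 4 of its probe sets. Probe set 229800_at read 2162 in CD90+ and 587 in CD90- cells, 3.68-fold higher with a log2 ratio of 1.88. Probe set 205399_at read 1722 in CD90+ and 418 in CD90- cells, 4.12-fold higher with a log2 ratio of 2.04. The remaining 2 were dim: 215303_at read 87.9 in CD90+ cells and 24.8 in CD90- cells, under the floor in CD90- cells and thus at least 1.23-fold higher, and 230962_at read 59.2 in CD90+ and 25.8 in CD90- cells, both under the floor. Without the floor the log2 ratio of 215303_at was 1.82, close to that of 229800_at, so its smaller fold is set by the floor. Among all genes with 3 measured probe sets, the number DCLK1 had, 23.5% had all 3 ratios above 0. DCLK1 ranked number 65 from the top among the 12466 measured genes, and 0.738% of them had a ratio as large in either direction.

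**Figure D2:**
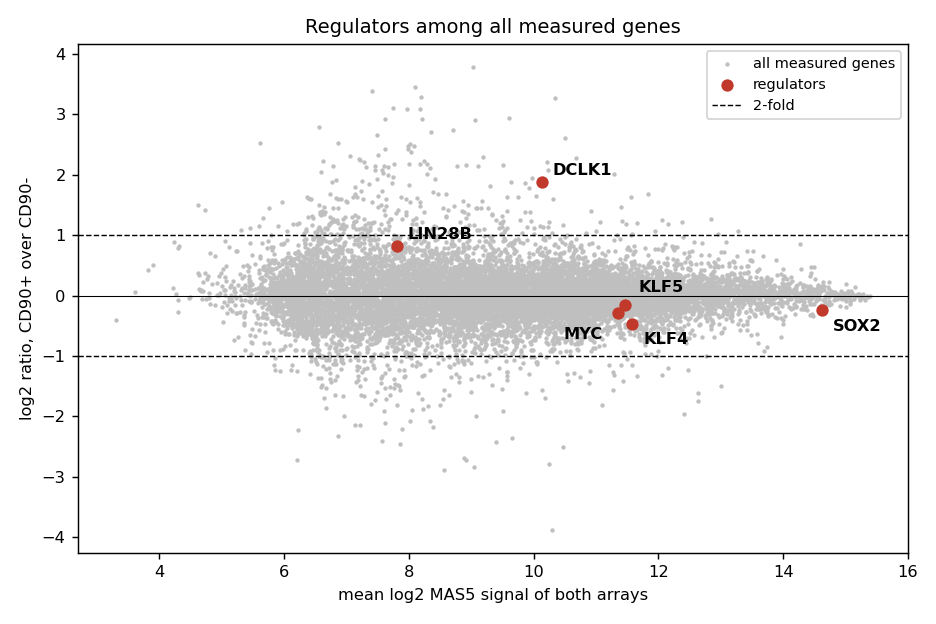
Log2 ratio (CD90+ over CD90-, after the floor) against the mean log2 MAS5 signal of both arrays, for all 12466 measured genes (grey) and the 6 regulators measured on a probe set of their own (red). DCLK1 at 1.88 lies above the 2-fold line, LIN28B at 0.82 lies below it, and SOX2, KLF4, KLF5 and MYC lie between -0.47 and -0.15.

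The genes around DCLK1 on chromosome 13 differed by less than DCLK1 in the upward direction. The 50 nearest genes that reached the floor on each array, the farthest 8.70 Mb away, had a median log2 ratio of 0.02. None of them was at least 2-fold higher and 2 were at least 2-fold lower, FRY and RASL11A. The nearest on either side, SPART and NBEA, had log2 ratios of 0.52 and 0.40, with NBEA at 255 in CD90+ and 193 in CD90- cells. The second NBEA probe set read 127 in CD90+ and 75.2 in CD90- cells, 1.69-fold higher, so both flanking genes lay above 0, below 2-fold.

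**Figure D3:**
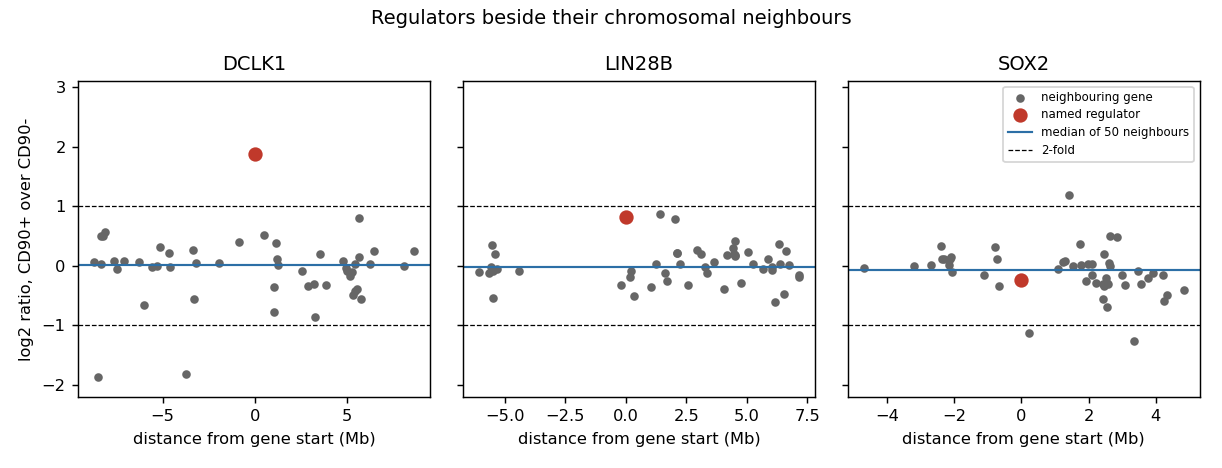
Log2 ratio (CD90+ over CD90-) of DCLK1, LIN28B and SOX2 (red) and of 50 neighbours of each (grey), against the distance from the gene's start in Mb. The neighbours are the 50 genes nearest by start position among those that reached the floor on each array. The blue line is the median of those 50 genes. The medians were 0.02 around DCLK1, -0.02 around LIN28B and -0.07 around SOX2.

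DCLK1 has 3 annotated start windows in RefSeq and LIN28B has 2, and these are printed because they are the regulators with the highest ratios. Each window runs from 250 bases before to 50 bases after a start, in GRCh38.p14, 5' to 3' on the gene's strand. Motifs bound by the regulators were searched on both strands and are in capitals: CACGTG (the MYC E-box), CATTGT (a SOX core), CCACACCC (a KLF CACCC box) and ATGCAAAT (the POU octamer), with TATAAA (the TATA box) beside them.
DCLK1 start 1 (chr13:36131890-36132189, - strand): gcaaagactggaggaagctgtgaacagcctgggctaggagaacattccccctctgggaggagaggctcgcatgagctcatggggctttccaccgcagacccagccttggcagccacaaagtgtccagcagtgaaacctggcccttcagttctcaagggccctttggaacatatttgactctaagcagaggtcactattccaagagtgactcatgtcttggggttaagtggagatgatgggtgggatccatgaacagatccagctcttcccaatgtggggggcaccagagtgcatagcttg
DCLK1 start 2 (chr13:36131333-36131632, - strand): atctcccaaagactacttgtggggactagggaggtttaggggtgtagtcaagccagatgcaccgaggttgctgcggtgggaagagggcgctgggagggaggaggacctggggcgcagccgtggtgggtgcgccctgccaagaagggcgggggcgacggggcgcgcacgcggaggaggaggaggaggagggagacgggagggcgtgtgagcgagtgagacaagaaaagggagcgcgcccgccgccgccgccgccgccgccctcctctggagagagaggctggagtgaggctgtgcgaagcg
DCLK1 start 3 (chr13:35855618-35855917, - strand): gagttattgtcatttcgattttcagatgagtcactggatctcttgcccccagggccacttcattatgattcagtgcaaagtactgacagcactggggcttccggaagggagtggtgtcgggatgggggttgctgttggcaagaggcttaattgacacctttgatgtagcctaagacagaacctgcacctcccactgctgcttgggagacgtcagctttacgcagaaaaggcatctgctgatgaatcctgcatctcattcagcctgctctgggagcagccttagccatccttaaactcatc
LIN28B start 1 (chr6:104940715-104941014, + strand): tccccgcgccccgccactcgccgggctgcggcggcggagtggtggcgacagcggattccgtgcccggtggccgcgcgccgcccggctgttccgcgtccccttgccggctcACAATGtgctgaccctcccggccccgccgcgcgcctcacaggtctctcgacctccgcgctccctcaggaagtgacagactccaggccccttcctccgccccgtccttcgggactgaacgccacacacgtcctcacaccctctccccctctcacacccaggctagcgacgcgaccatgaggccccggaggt
LIN28B start 2 (chr6:104956857-104957156, + strand): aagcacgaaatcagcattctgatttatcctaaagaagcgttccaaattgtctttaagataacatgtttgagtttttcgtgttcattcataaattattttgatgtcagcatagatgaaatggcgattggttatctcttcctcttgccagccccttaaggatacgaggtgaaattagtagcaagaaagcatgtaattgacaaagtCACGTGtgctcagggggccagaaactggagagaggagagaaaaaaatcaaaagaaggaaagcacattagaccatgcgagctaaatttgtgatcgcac
None of these letters was in the 3 DCLK1 windows. The second DCLK1 window had a GC content of 69.0% and 27 CpG, against 54.3% and 2 CpG in the first and 50.7% and 5 CpG in the third. The first LIN28B window held the SOX core on the reverse strand and the second held the MYC E-box. Over 35116 RefSeq windows of the same length 10.8% held the SOX core, 7.26% the E-box, 3.28% the CACCC box, 1.77% the octamer and 11.5% the TATA box. A match is a description of the letters, and the deposited values do not tell which start was used.

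Relatives of DCLK1 and genes of tuft cells, the chemosensory cells in which DCLK1 is best known, held no other gene that was higher. Of 16 listed genes 3 were measured, and all 3 had ratios below 0. AVIL, an actin-binding protein of tuft cells, read 80.6 in CD90+ and 125 in CD90- cells, and the phospholipase PLCG2 read 602 against 901. The other DCLK and doublecortin genes, DCX, DCLK2 and DCLK3, were under the floor on both arrays. So were POU2F3, the factor that specifies tuft cells, with 19.8 in CD90+ and 38.4 in CD90- cells, and the channel TRPM5, with 6.96 against 5.36.

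Among the SOX relatives 2 of 10 measured genes were at least 2-fold higher in CD90+ cells and 0 lower. The shares over all measured genes were 2.47% higher and 1.75% lower. The list had a median log2 ratio of 0.06, and another 8 listed genes were under the floor. SOX15, a SOX factor found in squamous epithelium, read 795 in CD90+ and 375 in CD90- cells, 2.12-fold higher, and 126 against 103 on its second probe set, a log2 ratio of 0.29. SOX8 read 164 in CD90+ cells and 35.0 in CD90- cells, under the floor there and thus at least 2.29-fold higher. SOX8 had 1 probe set, of the _s_at class, and was not counted without the _x_at, _s_at and _a_at classes or with a floor at the 75th percentile. SOX15 was under 2-fold by its least changed probe set, by the mean over its probe sets (0.69) and with the median of the 50 nearest genes subtracted (0.96). The count was 1 under each of these 5 choices and 5 without a floor.

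The KLF relatives lay more often below 0 than above, with none beyond 2-fold at the floor of 71.6. Of 15 listed genes 12 were measured, 8 had ratios below 0 and 4 above, and the median was -0.25. Among all measured genes 48.8% lay below 0. The absence of 2-fold differences depended on the floor. Without one, 2 KLF genes passed that mark upwards and 2 downwards. These counts were the same with a floor at the 25th percentile, while no KLF gene passed with one at the 75th percentile. KLF6 read 2468 in CD90+ and 2579 in CD90- cells and KLF10 read 2102 in CD90+ and 1345 in CD90- cells. After their values were seen, KLF2, at 312 against 179, stood out as the highest, 1.75-fold higher, and KLF15, at 28.2 in CD90+ and 133 in CD90- cells, as the lowest, at least 1.86-fold lower. KLF12, which lies near KLF5 on chromosome 13, read 789 in CD90+ and 1135 in CD90- cells. The list's median was -0.06 with a floor at the 25th percentile, with one at the 75th percentile and without a floor, and -0.56 once probe sets with an _x_at, _s_at or _a_at suffix were left out.

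Transcription factors of squamous differentiation included 4 of the 5 genes at least 2-fold lower over the 10 lists, which were chosen with earlier results of these data known. The shares over all measured genes were 1.75% at least 2-fold lower and 2.47% at least 2-fold higher. Of 22 listed genes 19 were measured, 1 was at least 2-fold higher, 4 at least 2-fold lower and 14 lay between, with 13 ratios below 0 and a median of -0.19. ZNF750, a p63-dependent factor of terminal differentiation, read 90.2 in CD90+ and 236 in CD90- cells, 2.62-fold lower. GRHL1, a grainyhead-like factor of the epidermal barrier, read 489 against 1180, 2.42-fold lower, among neighbouring genes with a median log2 ratio of -0.49. DLX5, a homeobox factor, read 348 in CD90+ and 750 in CD90- cells, 2.16-fold lower. GRHL3, the remaining gene at least 2-fold lower, is named because the count is small, and read 321 against 670. Each of these 4 genes had 1 measured probe set, and with the median of the 50 nearest genes subtracted 1 of them, ZNF750, was still at least 2-fold lower. The count was 1 with a floor at the 75th percentile, where GRHL1 remained, 2 without the _x_at, _s_at and _a_at classes, and 4 without a floor, against 5 in the pluripotency circuit without a floor. EHF, an epithelial ETS factor, was the 1 gene higher, with 541 in CD90+ and 71.1 in CD90- cells, at least 7.56-fold, but its second measured probe set, 232360_at, read 84.5 in CD90+ and 46.1 in CD90- cells, at least 1.18-fold. The remaining 4 EHF probe sets were under the floor on both arrays.

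Known p63 targets and family relatives stood nearly level. Of 19 listed genes 17 were measured, none differed by 2-fold, 12 had ratios above 0 and the median was 0.09. Over all measured genes 48.8% lay below 0. The 12 included ITGB4, at 0.00 after rounding, and DST, at 0.23 on its brightest probe set. Of the 7 measured probe sets of DST, 5 lay below 0. The median of the list was 0.01 by the mean over probe sets and -0.01 with the neighbours' median subtracted. KRT5, the basal keratin, read 19356 in CD90+ and 19208 in CD90- cells, and SFN, which encodes 14-3-3 sigma, read 24574 in CD90+ and 24380 in CD90- cells. Singled out afterwards, the factor SNAI2 read 3032 in CD90+ and 1822 in CD90- cells, 1.66-fold higher. CLCA2 read 231 against 445 on its _s_at probe set 206165_s_at, a log2 ratio of -0.95, and its other 3 probe sets had log2 ratios from -0.64 to -0.13.

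**Figure D4:**
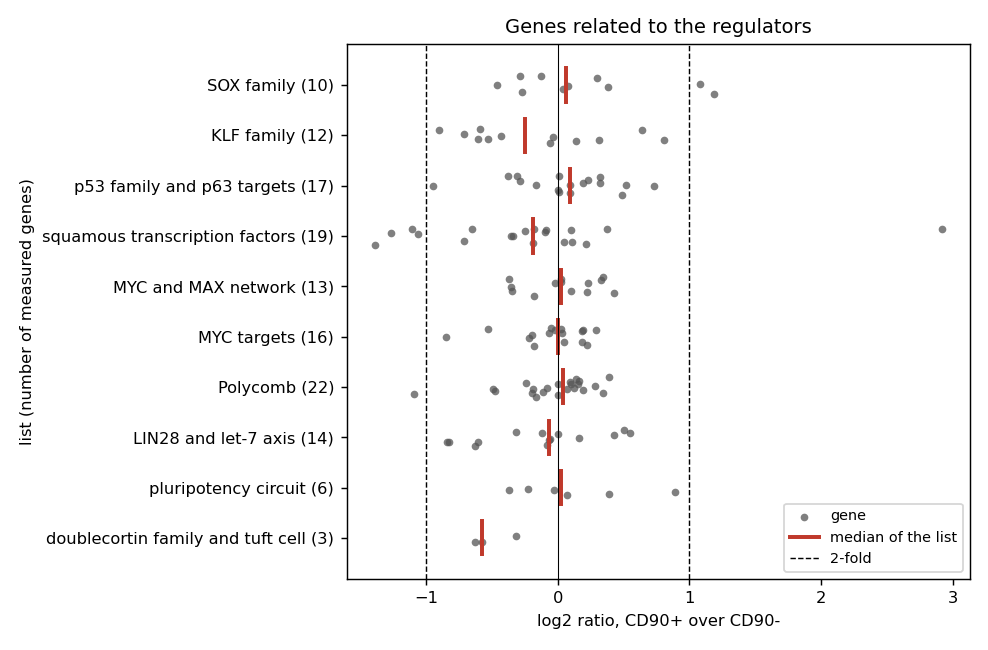
Log2 ratio (CD90+ over CD90-) of the measured genes of 10 lists related to the regulators (points), with each list's median (red bar), the 2-fold lines dashed, and the number of measured genes in brackets; vertical position within a list carries no value. Over the lists 3 genes lie at or beyond 2-fold higher and 5 at or beyond 2-fold lower, and EHF at 2.92 lies farthest from 0.

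The MYC and MAX network had no gene beyond 2-fold among 13 measured of 15 listed, with 8 ratios above 0 and a median of 0.02. MAX, the obligate partner of MYC, read 3472 in CD90+ and 3435 in CD90- cells, and MLX, a partner of related factors, read 2313 against 1990. Of 22 listed MYC target genes 16 were measured, none was beyond 2-fold, and 8 ratios lay above 0 and 8 below, with a median of 0.00. NPM1, a nucleolar protein, read 32004 in CD90+ and 33152 in CD90- cells, and the transferrin receptor TFRC read 28811 in CD90+ and 32579 in CD90- cells. Chosen after the values were seen, ODC1, the first enzyme of polyamine synthesis, was the lowest of them, with 10214 in CD90+ and 18471 in CD90- cells and a log2 ratio of -0.85, among neighbouring genes with a median of -0.49.

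The Polycomb complexes to which BMI1 belongs had 22 of 26 listed genes measured, 0 at least 2-fold higher, 1 at least 2-fold lower and a median log2 ratio of 0.04. The 1 gene lower as reported was PCGF5, a paralog of BMI1 that replaces it in another form of the complex. It read 904 in CD90+ and 1932 in CD90- cells, 2.14-fold lower, and its other 4 probe sets, all measured, had log2 ratios from -0.69 to -0.51. EZH2, the histone methyltransferase of complex 2, chosen after its value was seen, read 2599 in CD90+ and 3628 in CD90- cells, 1.40-fold lower.

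Other genes of the pluripotency circuit were mostly under the floor, as NANOG was. Of 28 listed genes 21 had a probe set of their own, 15 of these were under the floor on both arrays, and none of the 6 measured differed by 2-fold, with a median of 0.02. Those under the floor included SALL4, with 12.8 in CD90+ and 11.6 in CD90- cells, and ZFP42, with 5.77 against 3.70. The DNA methyltransferase DNMT3B read 598 in CD90+ and 700 in CD90- cells and the factor TFCP2L1 read 1228 in CD90+ and 1255 in CD90- cells. Over all 10 lists 132 genes were measured, of which 2.27% reached 2-fold higher and 3.79% reached 2-fold lower, beside the 2.47% and 1.75% of all measured genes.

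Each regulator's ratio was recomputed under other processing choices. SOX2 ran from -0.43 to -0.16, KLF4 from -0.49 to -0.20 and MYC from -0.29 to -0.28. LIN28B ran from 0.82 to 0.86 and did not reach 2-fold. KLF5 ran from -0.16 to 0.14, with its sign set by the probe set chosen. DCLK1 ran from 0.30 to 1.90 and was under 2-fold only by its least changed probe set, the dim 215303_at with a signal under the floor in CD90- cells.

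**Figure D5:**
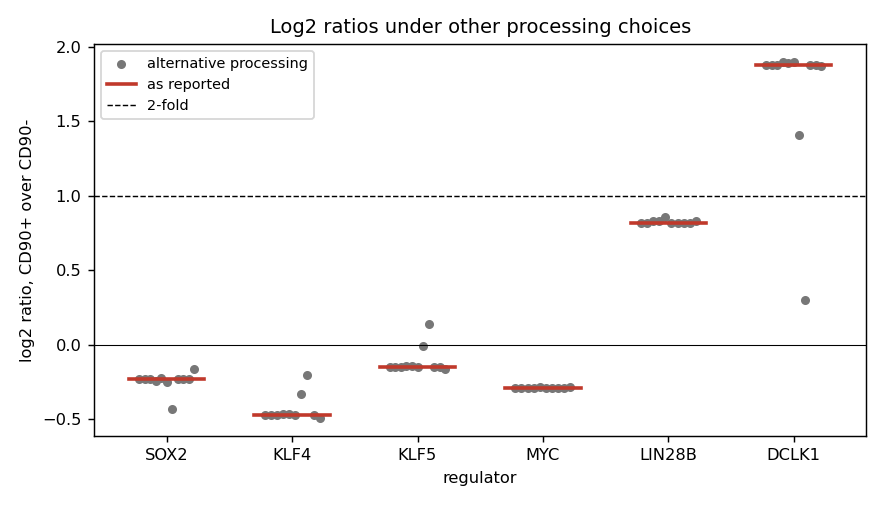
Log2 ratio (CD90+ over CD90-) of the 6 measured regulators as reported (red bar) and under each other processing choice that gave a value (grey points), with the 2-fold line dashed. DCLK1 lies at 1.41 with the mean over probe sets and at 0.30 with its least changed probe set, while MYC and LIN28B, with 1 probe set each, hardly move.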

How the data were processed

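Total RNA of 1 CD90+ and 1 CD90- sample was measured on 1 array each. The deposited values are linear signal intensities, made by the authors with MAS5 per the submitters' processing notes, whose version and parameters are not stated in the labels. The 2 to 98% trimmed mean was 500.1 on both arrays, with a median signal of 72.2 in CD90+ and 71.3 in CD90- cells. Because MAS5 corrects each perfect match by a mismatch probe, dim probe sets give unstable ratios. Detection calls and scanner files were not used here, and the number of arrays limits the precision.

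Names came from the platform annotation, with symbols updated by gene identifier through RefSeq (GRCh38.p14): 41097 of 54675 had 1 symbol, 41043 of these matched, 1801 had several and 11777 were unnamed here. The floor, the brightest single-symbol probe set standing for a gene (with _x_at used only where there was no other), and the 2-fold threshold follow an earlier treatment of these data. The regulators and the 10 lists were chosen with earlier results of these data known. In each list up to 3 genes each way beyond 2-fold were named, or the 2 brightest where none was. There is no replicate, so no test was made. Start windows were found for 8 of the 10 genes. The 12 alternatives changed the floor, scaling, probe set choice, neighbours or threshold. The procedure was tested on simulated data. The software was statsmodels 0.14.6 for the loess fit, pandas 2.3.3 and numpy 2.4.6 under Python 3.11.15, and matplotlib 3.10.9.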

Additional observations from a re-analysis of the deposited data

How the results depend on the processing

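With 1 array for each population no spread between sorts can be given, and signals near the floor limit what can be said of the dim genes. No paired analysis was possible because each population had 1 sample. The count of regulators at least 2-fold higher was 1, DCLK1, and became 0 by the least changed probe set and 2 at a 1.5-fold threshold. The count at least 2-fold lower was 0 and became 1 without a floor, from NANOG at signals under the floor. The 2 regulator probe sets at least 2-fold higher became 4 without a floor and 4 with a lower floor (17.2, the 25th percentile), and the 0 lower became 1 without a floor and 1 at 1.5-fold. Genes of the related lists at least 2-fold higher, 3 as reported, numbered 12 without a floor, 8 with the lower floor, 1 with a higher floor (397, the 75th percentile), 1 when the least changed probe set stood for each gene and 7 at 1.5-fold. Those at least 2-fold lower, 5 as reported, numbered 15, 11 and 2 under those floors, 3 without the _x_at, _s_at and _a_at classes, 2 with the neighbours' median subtracted and 18 at 1.5-fold. Over all genes 308 were higher and 218 lower as reported, against 2219 and 1784 without a floor, 1122 and 835 with the lower floor, 89 and 66 with the higher floor, 225 and 143 by the least changed probe set, and 919 and 843 at 1.5-fold. The lower fold counts under the higher floor follow from its construction, which raises dim signals and measures fewer genes. The counts of regulators kept their value under quantile, median and loess scaling. The median of the measured regulators turned to 0.33 without the shared classes, which left 4 of them. Of 63 recomputed log2 ratios of single regulators 61 stayed within the pooled probe set SD of 0.31 of the reported value. The exceptions were both of DCLK1, at 1.41 and 0.30. That count follows in part from construction. A floor under both signals leaves a ratio as it was, and a gene with 1 probe set offers no other.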

Other observations

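Some markers of neural cells were bright in this squamous line. NEFL, the neurofilament light chain, read 9194 in CD90+ and 14436 in CD90- cells, and TUBB3, a neuronal tubulin also found in carcinomas, read 11717 in CD90+ and 10094 in CD90- cells on an _x_at probe set. Other neural markers, SYP, GFAP and S100B, were under the floor on both arrays.

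The 3 probe sets of CDKN2A, a cell cycle inhibitor and known target of BMI1, differed among themselves. Probe set 207039_at read 8.75 in CD90+ and 11.2 in CD90- cells and 211156_at read 4.17 against 3.14, all under the floor. Probe set 209644_x_at, of the class with possible cross-hybridisation, read 143 in CD90+ cells and 14.9 in CD90- cells, under the floor there and thus at least 2.00-fold higher. CDKN2A was counted as not measured in its list, because an _x_at probe set stood for a gene only where there was no other. The telomerase gene TERT, a known MYC target, was under the floor on both of its probe sets, with 59.4 in CD90+ and 40.3 in CD90- cells on the brighter one.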
